A study of Rattus norvegicus with 10 samples.

Results

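The genes described here encode engulfment receptors and the proteins that work with them: the receptors Megf10, Mertk, Axl and Tyro3, the soluble ligands Gas6, Pros1 and Mfge8, and the endocytic receptor Lrp1. They are 8 of the 23487 genes in the count table and were chosen by symbol. Megf10 and Mertk were also picked because they stood high with the miR-145 mimic in OLs, so their values in that comparison are given without a test. RNA was sequenced in 10 libraries of primary Sprague-Dawley rat cells, 2 for each of 5 groups. Oligodendrocyte progenitor cells (OPCs) were grown out of mixed glial cultures from the cortices of pups aged P1 to P3. They were shaken free and depleted of other cells by differential adhesion, so some astrocytes and microglia can remain. OLs are OPCs that had been differentiated in culture and were collected 5 days after transfection with the miR-145 mimic (OL miR-145), with the miR-145 and miR-219 mimics together (OL miR-145+miR-219) or with a scrambled mimic (OL miR-ctl). OPCs were collected 24 h after transfection with an inhibitor of miR-145 (OPC anti-miR-145) or a scrambled inhibitor (OPC anti-miR-ctl). Each oligonucleotide was used at 30 nM, and no group was left untransfected. One label tag of both OL miR-145 libraries names miR-219 as well, while their titles name miR-145 alone, and they were taken as miR-145. The methods of the study name lentivirus for the RNAseq cells where its results name mimics. Nothing in the labels says whether replicates came from separate animals. The study states that every N was a biological replicate, and for primary cultures it describes N as cells of a single mouse, without naming rats. The p-values measure only the spread between these libraries.

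Engulfment receptors let a cell recognise and take up dying cells, synapses and debris. MERTK, AXL and TYRO3 form the TAM family of receptor tyrosine kinases, which see phosphatidylserine on a dying cell through a bridging ligand, GAS6 or protein S (PROS1). MEGF10 is an engulfment receptor best known from astrocytes, MFG-E8 (Mfge8) links phosphatidylserine to integrins, and LRP1 is a large endocytic receptor that takes up apolipoproteins and myelin debris. In demyelinated tissue, clearance of myelin debris is a step before remyelination.

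The agents that separate the groups were short RNAs, and the mature miRNAs they copy or oppose are printed here from RefSeq (GRCr8) to show which bases they read. The miR-145-5p mimic matches the mature miRNA according to the labels, whereas the arm of miR-219 is not given there, and the 5p arm of miR-219a is shown. Capitals mark the seed, bases 2 to 8 from the 5′ end, and the 2 seeds differ. Rat miR-145-5p lies at chr18:57370033-57370055 and miR-219a-5p at chr3:33516561-33516581, both on the minus strand.
rno-miR-145-5p: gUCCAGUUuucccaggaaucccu
rno-miR-219a-5p: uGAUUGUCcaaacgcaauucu

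Counts assigned to genes summed to between 33505706 and 42684206 per library, and the members had between 427 counts (Pros1 in an OPC anti-miR-ctl library) and 57722 counts (Gas6 in an OPC anti-miR-145 library), so depth did not limit them. Levels are given as CPM (counts scaled to the size of the library) after TMM normalisation over the 10 libraries, and since CPM is not scaled by gene length, levels are compared between groups and not between genes. The labelled cell types were checked against marker lists. The summed level of 14 markers of maturing OLs lay between 18710 and 38850 CPM in the OL libraries and between 1435 and 1642 CPM in the OPC libraries, and that of 10 OPC markers lay between 3491 and 4332 CPM in OLs and between 6927 and 8977 CPM in OPCs. Markers of other cells were present too. The 14 astrocyte markers summed to 10070 to 19380 CPM in OLs and to 1153 to 1349 CPM in OPCs, and the 15 microglia and macrophage markers summed to 537.9 to 1287 CPM in OLs and to 1106 to 1661 CPM in OPCs. No microglial marker was at 0 in any library, and of the astrocyte markers only Gjb6 was, in 2 libraries. Neuronal markers (8 of 10 matched) summed to 378.9 to 757.4 CPM, and markers of fibroblasts, mural and endothelial cells (9 of 14 matched) to 4.654 to 62.2 CPM. In these bulk samples, fewer cells of a type and less RNA per cell cannot be told apart.

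**Figure D1:**
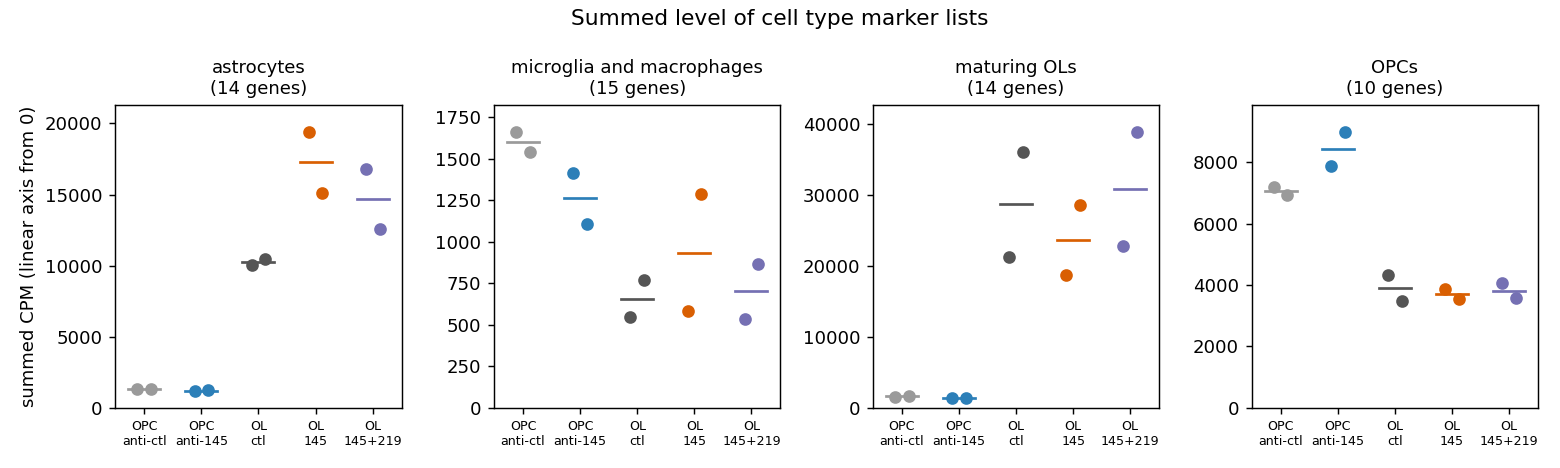
Summed CPM of 4 marker lists (y axes, linear from 0) in each library of the 5 groups (x axes), with points for libraries and bars for group means. Astrocyte markers sum to 15130 and 19380 CPM in the OL miR-145 libraries against 10070 and 10480 CPM in OL miR-ctl, whereas the OPC libraries lie between 1153 and 1349 CPM.

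Megf10 was low in OPCs and higher in OLs. It stood at 17.7 and 18.7 CPM in OPC anti-miR-ctl and at 16.0 and 16.8 CPM in OPC anti-miR-145. In OLs it stood at 59.35 and 55.8 CPM with miR-ctl, 149.4 and 140.5 CPM with miR-145, and 137.5 and 97.6 CPM with both mimics. No 2 groups overlapped, and the mean of the highest group was 8.82 times that of the lowest. Both OPC groups were the lowest, and within them the inhibitor group lay just under its control.

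Mertk, the TAM receptor through which many phagocytes take up apoptotic cells, had the same order among OL groups. It read 33.8 and 36.7 CPM in OL miR-ctl, 83.9 and 77.6 CPM in OL miR-145, and 75.4 and 44.6 CPM in OL miR-145+miR-219. In OPCs it was at 18.0 and 14.55 CPM with the control and at 22.7 and 22.2 CPM with the inhibitor. The groups did not overlap, and the 2 libraries that received both mimics lay farther apart than those of any other group.

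Axl, a TAM receptor with GAS6 as a ligand, ran from 14.7 and 14.25 CPM in OPC anti-miR-ctl to 53.9 and 54.8 CPM in OPC anti-miR-145. OLs held 68.3 and 71.3 CPM with miR-ctl, 118.6 and 138.7 CPM with miR-145, and 97.1 and 82.5 CPM with both mimics. Again no 2 groups overlapped. The OPCs given the inhibitor stood nearer to control OLs than to control OPCs.

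Tyro3, the remaining TAM receptor, was set apart by its replicates. It read 90.5 and 164.3 CPM in OL miR-ctl, 139.8 and 197.4 CPM in OL miR-145, and 148.8 and 247 CPM in OL miR-145+miR-219, so replicate 2 was the higher in each OL group and the 3 OL groups overlapped. The myelin gene Mbp was also higher in replicate 2 of each OL group. It was at 6220 and 13100 CPM in the OL miR-ctl replicates, and the part of this difference in the spread of Tyro3 was not tested. In OPCs Tyro3 varied little, at 50.15 and 53.35 CPM with the control and 49.0 and 50.1 CPM with the inhibitor.

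**Figure D2:**
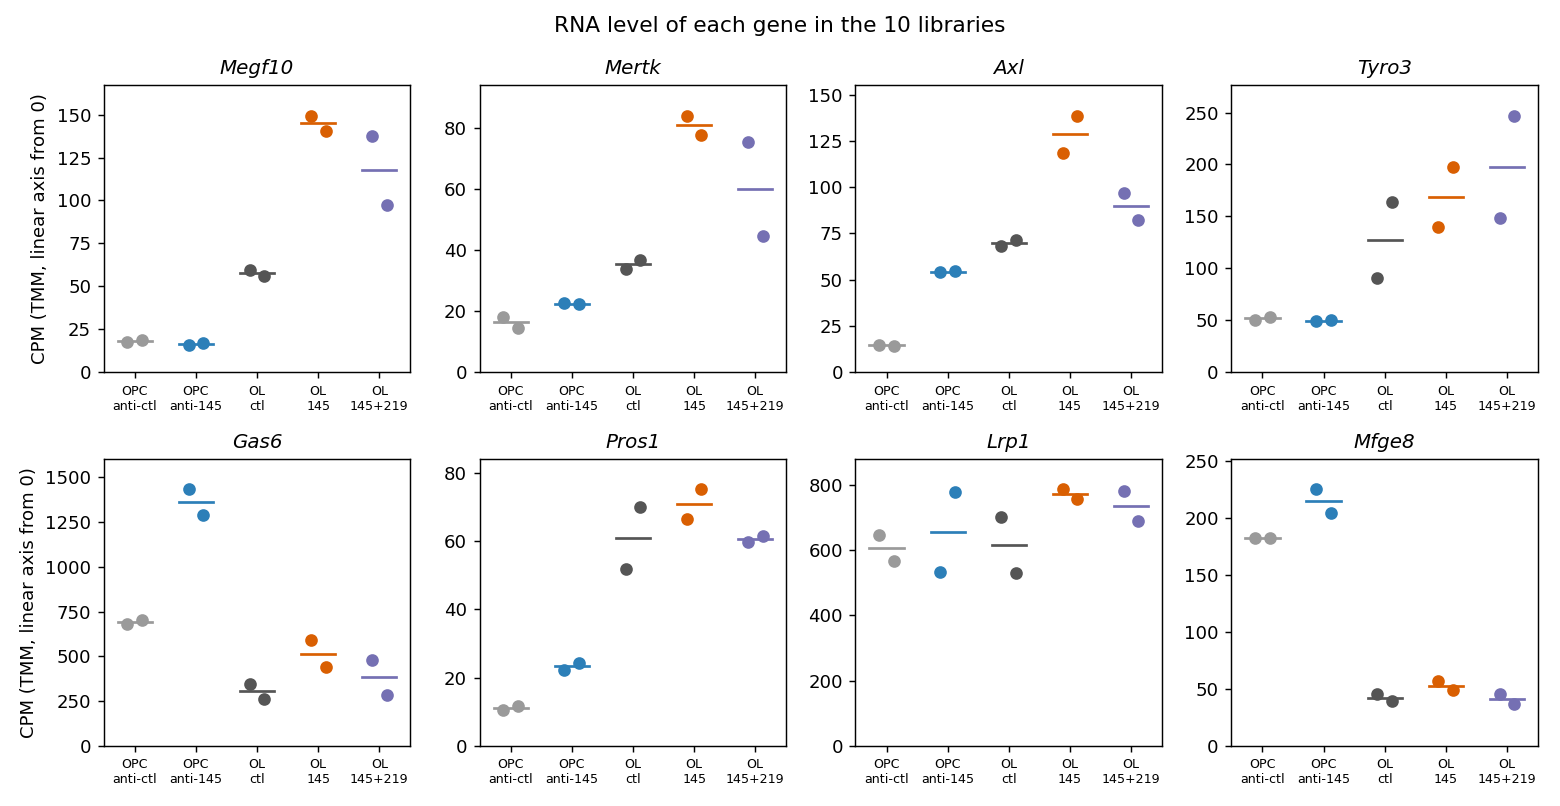
CPM after TMM normalisation (y axes, linear from 0) of each of the 8 genes in the 5 groups (x axes), with a point for each library (replicate 1 on the left) and a bar for the group mean. Megf10, Mertk and Axl are highest in OL miR-145, Gas6 and Mfge8 are highest in OPC anti-miR-145, and neighbouring groups of Lrp1 overlap.

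Among the ligands, Gas6 stood higher in OPCs than in OLs. It was at 679.5 and 703.9 CPM in OPC anti-miR-ctl and at 1433 and 1290 CPM in OPC anti-miR-145. In OLs it was at 347 and 262.5 CPM with miR-ctl, 589 and 439.7 CPM with miR-145, and 479.7 and 286 CPM with both mimics. Every OPC library was above every OL library, and the OL miR-145+miR-219 group overlapped both other OL groups.

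Pros1, which encodes protein S, a ligand of TYRO3 and MERTK, was low in OPCs. It was at 10.5 and 11.7 CPM with the control inhibitor and at 22.4 and 24.3 CPM with anti-miR-145. In OLs it was at 52.0 and 70.0 CPM (miR-ctl), 66.6 and 75.2 CPM (miR-145), and 59.9 and 61.6 CPM (both mimics). The OL miR-ctl libraries spanned both of the group with both mimics and overlapped miR-145, while every OL library was above every OPC library.

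Mfge8 was at 183.1 and 183 CPM in OPC anti-miR-ctl, 225.4 and 205 CPM in OPC anti-miR-145, and between 36.9 and 56.7 CPM in the 6 OL libraries. Lrp1 was the flattest of the 8, with every library between 531 and 786.6 CPM and the highest group mean 1.27 times the lowest. Each group of Lrp1 overlapped its neighbour in the order of means, so neighbouring groups cannot be ordered.

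The comparison that shares no library with the choice of Megf10 and Mertk was that of the inhibitor with its control in OPCs. With anti-miR-145, the TAM receptors Axl and Mertk and the ligands Pros1 and Gas6 rose. Axl rose 3.79-fold (log2 fold change 1.92, SE 0.09, edgeR adjusted p = 4.61e-05), from 14.5 ± 0.311 to 54.3 ± 0.628 CPM (mean ± SD, n = 2). Pros1 rose 2.13-fold (1.09, SE 0.11, adjusted p = 0.000532) and Gas6 1.99-fold (0.99, SE 0.09, adjusted p = 0.00043). Mertk rose 1.39-fold (0.48, SE 0.12, adjusted p = 0.0265). These are 4 of the 8 members called higher and 0 called lower. Of the 15496 genes tested, 28.1% were called, 12.1% higher and 16% lower, so calls were common in this comparison. The median log2 fold change of the members was 0.36, beside 0.00 over all genes tested.

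Megf10 was not called with the inhibitor (log2 fold change -0.13, 95% interval -0.37 to 0.10, adjusted p = 0.351), and neither was Tyro3 (-0.05, interval -0.25 to 0.15, adjusted p = 0.71). The intervals leave room for a small difference in either direction. Mfge8 had a log2 fold change of 0.25 (interval 0.04 to 0.46, adjusted p = 0.0762). Lrp1 had 0.13 (interval -0.26 to 0.52, adjusted p = 0.604), and its 2 inhibitor libraries, at 533 and 779.7 CPM, enclosed both controls. The groups lay apart with the inhibitor higher for 5 members (32.8% of all genes tested) and lower for 2 (35.1%).

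Some of these calls rest on 1 library. Without replicate 2 of OPC anti-miR-ctl, Mertk was no longer called (log2 fold change 0.31, edgeR adjusted p = 0.295), and in a single fit of all 10 libraries its adjusted p was 0.167. Without replicate 1 of OPC anti-miR-145 Lrp1 was called (0.36, adjusted p = 0.00466), and without replicate 2 of that group Mfge8 was called (0.33, adjusted p = 0.00186). Axl, Pros1 and Gas6 were called without any 1 of the 4 libraries, with log2 fold changes of 1.88 to 1.93, 0.98 to 1.15 and 0.90 to 1.08.

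Markers of microglia moved in the same OPC libraries. Of the 15, 8 were called higher and 6 lower with the inhibitor, with a median log2 fold change of 0.42. Their sum was 1106 to 1418 CPM against 1543 to 1661 CPM in the control. Lyz2, the marker with the highest level in the control, weighed on this sum, at 155 and 94.2 CPM against 467 and 432 CPM. Aif1, a cytoskeletal protein of microglia, fell by 1.40 on the log2 scale (adjusted p = 0.0031) and Csf1r, their growth factor receptor, by 0.41 (adjusted p = 0.0364), while C1qa rose by 1.14 (adjusted p = 0.000925). Of 13 astrocyte markers tested, 3 were called higher and 6 lower, with a median of 0.05 and a sum of 1153 to 1234 CPM against 1287 to 1349 CPM. Of 7 tested markers of fibroblasts, mural and endothelial cells, 0 were called higher and 1 lower, with a sum of 4.654 to 5.412 CPM against 12.69 to 13.68 CPM. Flt1 alone was at 0.993 and 0.749 CPM with the inhibitor against 10.7 and 10.1 CPM in the control. The median of the list was 0.31, with 3 genes higher in every library and 3 lower, so the sum does not describe the list. The part of these cells in the values of Axl, Gas6, Pros1 and Mertk was not tested.

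**Figure D3:**
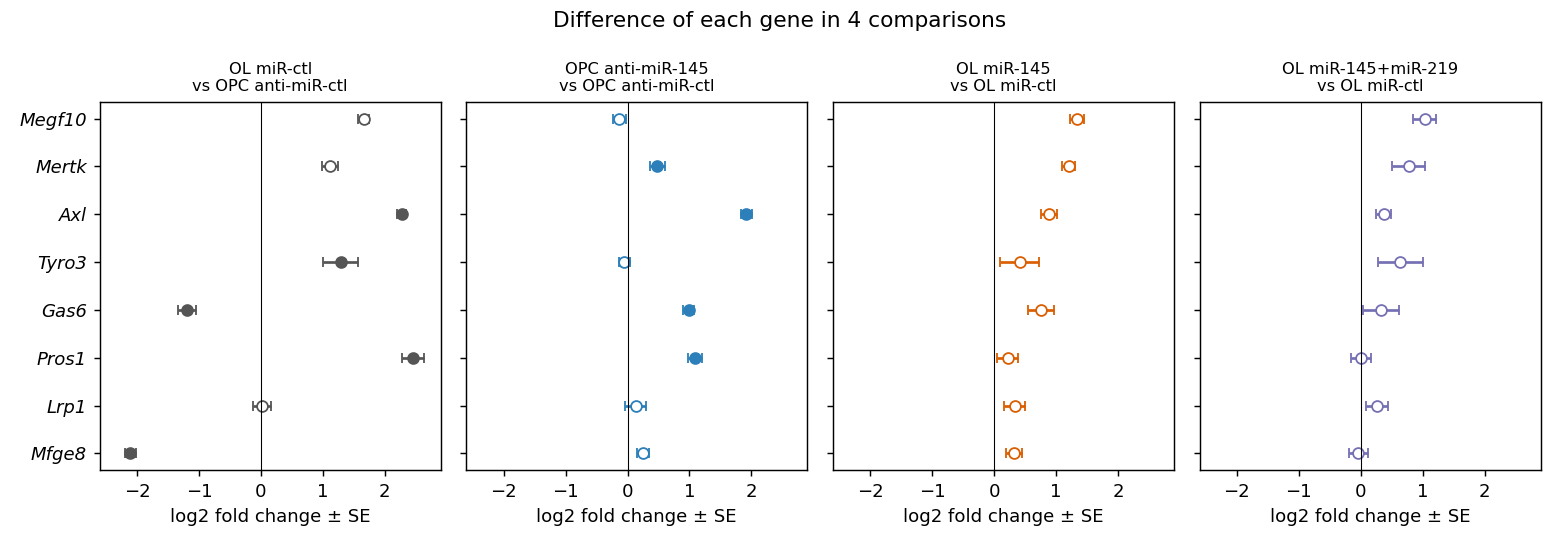
Log2 fold change (x axes) of each of the 8 genes with its SE in 4 comparisons (panels), from edgeR on 2 libraries against 2. Filled points were called at an adjusted p under 0.05; open points were not called, or, for every gene with miR-145 and for Megf10 and Mertk in all panels but the inhibitor, are given without a test. Axl is at 1.92 with the inhibitor and Megf10 at -0.13, whereas with the miR-145 mimic Megf10 is at 1.34 and Axl at 0.89.

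The other genes of the engulfment pathway were followed in 6 lists that together hold 121 genes. In OPCs 24 of the 109 tested rose with the inhibitor and 26 fell, which is 45.9% called beside 28.1% of all genes. Of 11 bridging ligands and integrin partners, 5 rose and 3 fell, and the median log2 fold change was 0.31. The complement chains C1qb, C1qc and C1qa, which tag material for uptake, rose by 1.34, 1.31 and 1.14. Anxa5, a phosphatidylserine-binding annexin, fell by 1.93, and Itgb3 and the galectin gene Lgals3 fell by 1.31 and 0.61. These 3 complement genes also stand in the microglial marker list.

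Of 27 other engulfment receptors, 5 rose and 12 fell, with a median of -0.27. Trem2, a lipid-sensing receptor of microglia, rose by 1.67, the scavenger receptor Stab1 by 1.59 and the mannose receptor Mrc1 by 1.16. The integrin chains Itgb2 and Itgam, which make up complement receptor 3, fell by 2.17 and 1.58, and the Fc receptor gene Fcgr3a fell by 1.81. Trem2 and Itgam are likewise in the microglial list.

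Of 22 adaptors and effectors of engulfment, 3 rose and 4 fell (median -0.07). Vav3, a guanine nucleotide exchange factor, rose by 2.39, Ptk2 (focal adhesion kinase) by 0.50 and Elmo1 by 0.37, while Vav1, Syk and Plcg2 fell by 1.70, 1.17 and 1.16. Of 17 phagosome and LC3-associated genes, 7 rose and 1 fell (median 0.13), with Map1lc3a at 0.80, Map1lc3b at 0.40 and Mcoln1 at 0.37, and Lamp2 at -0.30. Among 15 eat-me and do-not-eat-me signals, 2 rose, the fractalkine receptor gene Cx3cr1 (1.83) and P2ry12 (1.03), both microglial markers, and 3 fell. The 3 were Cd47, the do-not-eat-me signal (-1.07), its receptor gene Sirpa (-0.54) and the nucleotide receptor gene P2ry2 (-2.75).

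Genes that mature, shed or carry TAM signals split as well, 2 of 17 higher and 3 lower, with a median of 0.11. Socs3, a suppressor of cytokine signalling that TAM receptors are known to induce, rose from 10.0 and 10.1 CPM to 25.1 and 25.0 CPM (log2 fold change 1.33, SE 0.10, adjusted p = 0.000154). Ppard rose by 0.86. Nr1h3 (LXR alpha) fell by 1.57, Socs1 by 1.18, and Adam17, the protease known to shed MERTK from the cell surface, by 0.36.

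**Figure D4:**
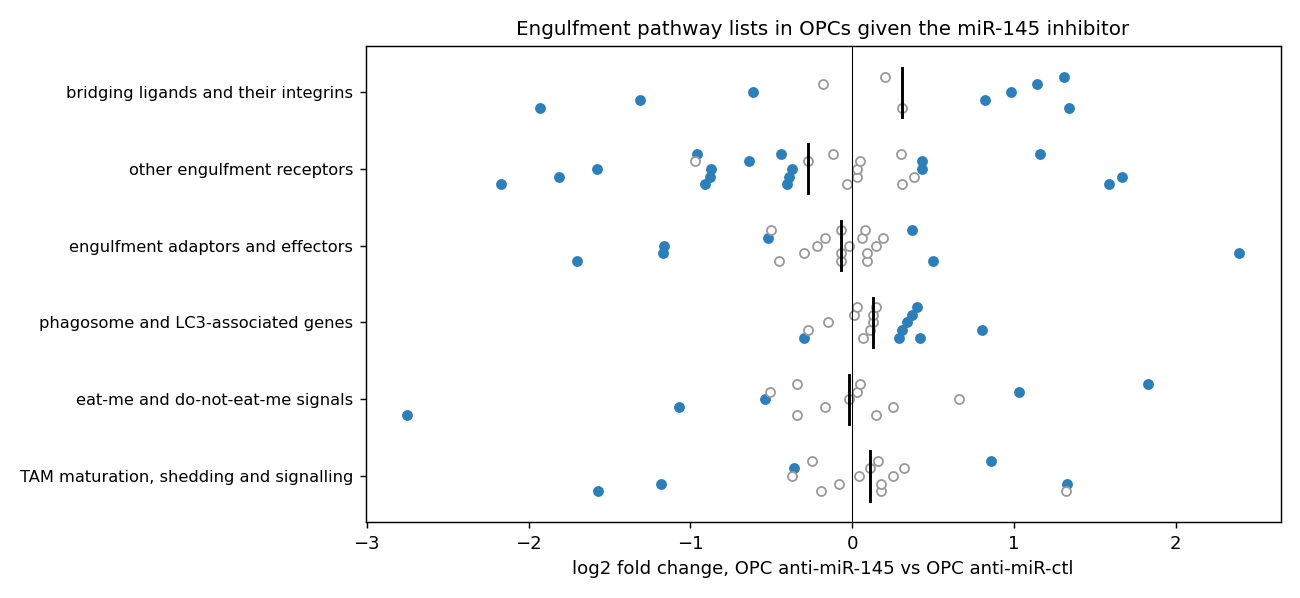
Log2 fold change with the miR-145 inhibitor in OPCs (x axis) of each tested gene of the 6 engulfment lists (rows), with filled points for genes called at an edgeR adjusted p under 0.05, open points for the others and a bar for each list's median. Every list holds genes on both sides of 0, and the medians run from -0.27 (other engulfment receptors) to 0.31 (bridging ligands and their integrins).

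Control OLs were set beside control OPCs to show how the members differ between the stages. The groups also differ in the oligonucleotide and in the time after transfection, and these cannot be told apart from the stage. In OLs, Pros1 was 5.49-fold higher (log2 fold change 2.46, SE 0.18, edgeR adjusted p = 0.000312), Axl 4.81-fold higher (2.27, SE 0.08, adjusted p = 6.08e-05) and Tyro3 2.45-fold higher (1.29, SE 0.28, adjusted p = 0.0131). Mfge8 was 4.33-fold lower (-2.11, SE 0.09, adjusted p = 8.19e-05) and Gas6 2.28-fold lower (-1.19, SE 0.15, adjusted p = 0.00191). Lrp1 was not called (0.02, 95% interval -0.37 to 0.41). Of these 6 genes 3 were called higher and 2 lower, beside 57.5% of the 15721 genes tested (28.8% higher and 28.7% lower), so calls were common in this broad comparison. The OL miR-ctl libraries also serve in the comparison that picked Megf10 and Mertk, whose values here, 1.66 (SE 0.09) and 1.11 (SE 0.13), are given without a test.

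Tyro3 was no longer called without replicate 1 (adjusted p = 0.0888) or replicate 2 (adjusted p = 0.0754) of OPC anti-miR-ctl, and Lrp1 was called at 0.21 without replicate 2 of OL miR-ctl (adjusted p = 0.0344). Of 14 astrocyte markers 13 were called higher in OLs (median log2 fold change 2.66), as were 4 of 7 markers of fibroblasts, mural and endothelial cells, with 2 lower (median 1.29). Of 15 microglial markers 2 were called higher and 7 lower (median -0.23), while 7 were higher in every library and 7 lower. Their sum was 545.3 and 770.8 CPM in OLs against 1661 and 1543 CPM in OPCs. Lyz2 alone was at 7.89 and 15.3 CPM in OLs against 467 and 432 CPM in OPCs. The part of these cells in the values of the members was not tested. Of the markers of maturing OLs, 12 of 14 were called higher (median 3.20).

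Across the 6 engulfment lists, 45 of 109 genes were higher in OLs than in OPCs and 27 lower, which is 66.1% called beside 57.5% of all genes tested. Of 17 phagosome and LC3-associated genes 14 were higher and 0 lower, with a median of 0.51 beside 0.01 over all genes. Lamp1, a lysosomal membrane protein, was at 1.65, Rubcn, a regulator of LC3-associated phagocytosis, at 0.95 and Rab5b at 0.94. Of 22 adaptors and effectors 10 were higher, led by the lipid transporter gene Abca1 (2.33), Dock4 (1.73) and Vav2 (1.20), and 5 lower, including Src (-2.23), Plcg2 (-2.19) and Vav1 (-3.09). Of 28 other receptors 7 were higher, among them Trem2 (1.13), Stab1 (1.66) and Lrp4 (0.53), and 12 lower, among them Fcgr3a (-3.32), Itgb2 (-4.21) and Itgam (-3.41). Trem2 and Itgam also stand in the microglial marker list, and the part of microglia in these lists was not tested.

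Bridging ligands and integrins were split, 4 higher (Anxa1, 2.41; Apoe, 1.90; Lgals3, 2.03) and 4 lower (Anxa5, -1.24; Itgav, -1.28; Itgb3, -1.06) of 11. Eat-me and do-not-eat-me signals were split too, 3 higher and 4 lower of 15. The lipid flippase gene Atp11a was higher by 2.65, the channel gene Panx1 by 1.41 and Tmem30a by 0.35, and Cd47 was lower (-1.49), as was P2ry2 (-1.33). Of 16 genes of TAM maturation and signalling, 7 were higher and 2 lower. Ggcx, the carboxylase that GAS6 and protein S need to become active, was higher by 1.41, Jak1 by 0.52 and Ppard by 0.47, while Socs1 (-3.23) and Mapk14 (-0.49) were lower.

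With the miR-145 mimic in OLs all 8 members stood above miR-ctl in their group means. This comparison is the source of the choice of Megf10 and Mertk, so the values are a description. Megf10 stood 2.53-fold higher (log2 fold change 1.34, SE 0.11), Mertk 2.30-fold (1.20, SE 0.11), Axl 1.85-fold (0.89, SE 0.13) and Gas6 1.69-fold (0.76, SE 0.21). The remaining log2 fold changes were 0.41 for Tyro3, 0.33 for Lrp1, 0.32 for Mfge8 and 0.22 for Pros1. For Axl, Gas6, Lrp1 and Mfge8 both miR-145 libraries were above both miR-ctl libraries, beside 22.9% of all genes. The same held for Megf10 and Mertk, but their choice makes that share no measure for them. Tyro3 and Pros1 overlapped. Ranked by log2 fold change, Megf10 was 391st and Mertk 515th of 15461 genes, within the 784 genes (5.07%) at a log2 fold change of 1 or more. At an adjusted p under 0.05 edgeR called 0% of the 15461 genes, although 2067 (13.4%) had an unadjusted p under 0.05, and DESeq2 called 649.

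In the same libraries 11 of 14 astrocyte markers stood above the control in every library, with a median log2 fold change of 0.88 beside -0.01 over all genes. Their sum was 15130 to 19380 CPM with miR-145 and 10070 to 10480 CPM with miR-ctl. Gfap, the intermediate filament of astrocytes, was at 9710 and 6710 CPM with miR-145 and 4800 and 4180 CPM with miR-ctl. Microglial markers had a median of 0.61, with 5 of 15 higher in every library, and summed to 581.6 and 1287 CPM with miR-145 against 545.3 and 770.8 CPM. Markers of fibroblasts, mural and endothelial cells had a median of 0.93, with 6 of 8 higher in every library and 1 lower, and summed to 52.9 and 60.38 CPM with miR-145 against 38.17 and 25.27 CPM. The part of all these cells in the values of Megf10, Mertk, Axl and Gas6 was not tested.

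Of the 110 tested genes of the engulfment lists edgeR called 0 with the mimic, 16 had an unadjusted p under 0.05, and DESeq2 called 7. The list medians ran from -0.04 (phagosome genes) to 0.33 (other receptors). The genes with the smallest p included the adaptor gene Gulp1, at 6.43 and 4.77 CPM with miR-145 and 2.19 and 2.18 CPM with miR-ctl (log2 fold change 1.36, SE 0.26, edgeR adjusted p = 0.164). Cd24, a do-not-eat-me signal, had 1.83 (adjusted p = 0.158), Cx3cr1 1.91 and Anxa5 0.79, and the Fc receptor gene Fcgr2b 1.98 (adjusted p = 0.199).

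With both mimics against miR-ctl, edgeR called 0% of 15436 genes (956, or 6.19%, at an unadjusted p under 0.05, and 106 by DESeq2). Megf10 and Mertk, described without a test because the control libraries are shared, were at 1.03 (SE 0.18) and 0.77 (SE 0.26). Axl was at 0.37 (95% interval 0.06 to 0.67, unadjusted p = 0.0267 and adjusted p = 0.80 by edgeR). Intervals of the others included 0, from -0.31 to 1.59 for Tyro3, -0.40 to 1.07 for Gas6, -0.42 to 0.42 for Pros1, -0.21 to 0.72 for Lrp1 and -0.41 to 0.34 for Mfge8. Axl was higher in both libraries than in either control, beside 17.3% of all genes. Megf10 and Mertk were too, but their choice with the same controls makes that share no measure for them. The other 5 members overlapped. Astrocyte markers had a median of 0.54, with 7 of 14 higher in every library. Microglial markers had a median of 0.27, with 5 of 15 higher in every library and 1 lower. Markers of fibroblasts, mural and endothelial cells had a median of 0.79, with 4 of 7 higher in every library and 3 lower, and summed to 62.2 and 49.45 CPM. The part of these cells in the members' values was not tested.

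When miR-219 was added to miR-145, 7 of the 8 group means were lower than with miR-145 alone, Tyro3 being the exception at 0.22. The miR-145 libraries are those in which Megf10 and Mertk were picked as high, so both are described without a test. Their lower values here are not independent of that choice. Axl had the smallest p (log2 fold change -0.53, 95% interval -0.91 to -0.15, unadjusted p = 0.0154 and adjusted p = 1 by edgeR). Megf10 was at -0.31, Mertk at -0.44, Gas6 at -0.43, Mfge8 at -0.36, Pros1 at -0.23 and Lrp1 at -0.08. Axl, Pros1 and Mfge8 were lower in both libraries than in either miR-145 library, beside 11.2% of all genes. Megf10 and Mertk were too, but their choice makes that share no measure for them. edgeR called 0% of 15501 genes (228, or 1.47%, at an unadjusted p under 0.05, and 9 by DESeq2), so none of these differences passed in this fit. Replicate 1 of the group with both mimics lay close to miR-145 for Megf10 (137.5 CPM) and Mertk (75.4 CPM), and replicate 2 was the lower of the pair (97.6 and 44.6 CPM). The astrocyte marker sum had the same order, 16810 CPM in replicate 1 and 12590 CPM in replicate 2, and its part was not tested. In the engulfment lists edgeR called 0 genes in each of these comparisons. At an unadjusted p under 0.05 there were 7 of 109 for both mimics against miR-ctl and 1 of 110 against miR-145, and DESeq2 called 2 and 0.

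Side by side, Axl, Gas6 and Pros1, which rose with the inhibitor in OPCs, did not stand lower with the mimic in OLs. Mertk rose with the inhibitor too, but it was picked for standing high with the mimic. Axl was at 1.92 with the inhibitor and 0.89 with the mimic, Gas6 at 0.99 and 0.76, Mertk at 0.48 and 1.20, and Pros1 at 1.09 and 0.22. Megf10 was at -0.13 and 1.34, and its mimic value, like that of Mertk, was fixed by the choice. The stages and times differ between these comparisons, and the difference between them was not tested.

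Axl, Gas6 and Pros1 rose together in OPCs, and the sequence around their annotated starts is printed because the 3 genes moved together. Each is a window of 300 bases on 1 annotated start of the gene (RefSeq, GRCr8), and 7 of the 8 members matched. The Gas6 window runs from 250 bases before to 50 after the outermost annotated start, the Axl window begins 136 bases before it, and the Pros1 window lies inside the annotated gene. Megf10 did not match. Axl is at chr1:90423960-90424259 (minus strand), Gas6 at chr16:82747426-82747725 (plus strand) and Pros1 at chr11:13677049-13677348 (plus strand), and capitals mark the GC box GGGCGG on either strand.
Axl: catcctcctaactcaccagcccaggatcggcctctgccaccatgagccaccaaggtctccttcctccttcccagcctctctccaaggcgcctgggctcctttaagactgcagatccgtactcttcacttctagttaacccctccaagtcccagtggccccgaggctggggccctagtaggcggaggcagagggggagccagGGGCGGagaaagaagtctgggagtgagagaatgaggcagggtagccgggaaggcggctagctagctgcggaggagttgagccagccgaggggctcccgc
Gas6: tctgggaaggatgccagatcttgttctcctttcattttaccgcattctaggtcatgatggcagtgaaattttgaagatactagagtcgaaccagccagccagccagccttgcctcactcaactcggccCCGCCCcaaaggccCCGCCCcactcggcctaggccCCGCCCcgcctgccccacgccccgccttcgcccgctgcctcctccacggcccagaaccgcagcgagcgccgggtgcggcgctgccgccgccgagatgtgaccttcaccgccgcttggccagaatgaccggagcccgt
Pros1: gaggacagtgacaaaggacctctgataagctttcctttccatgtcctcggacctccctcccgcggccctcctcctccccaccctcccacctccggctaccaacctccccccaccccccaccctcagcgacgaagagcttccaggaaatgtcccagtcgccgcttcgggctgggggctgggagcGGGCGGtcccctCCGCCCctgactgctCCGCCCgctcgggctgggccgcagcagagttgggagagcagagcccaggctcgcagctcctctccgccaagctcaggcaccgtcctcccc
The GC box was in all 7 member promoters and in 33.1% of the 33469 promoters of the same length. Promoter here means the window on an annotated start, and those of Mertk and Tyro3 also lie inside the annotated gene. The 7 had a GC content of 63% (Axl) to 81.3% (Tyro3). That of the other promoters was not computed, so the shares are not matched for it and show no enrichment. The AP-1 motif TGANTCA was in 1 of 7 (Tyro3), beside 7.33% of all promoters, and the STAT motif TTCNNNGAA in 1 of 7 (Pros1), beside 8.87%. Both strands were searched, and the GC box overlaps itself in the Tyro3 promoter. These are matches of letters and not sites of binding.

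Genes whose profile lay nearest to each receptor were found by the root mean square difference of log2 CPM, centred on the mean of the 10 libraries, over 12521 genes. The nearest to Megf10 were Nbl1, a secreted BMP antagonist (0.123), Pld2, a phospholipase (0.135), Nipal2 (0.153), Gulp1 (0.156) and the glypican gene Gpc4 (0.16). The spread of Megf10 itself was 1.38 (SD of log2 CPM), so these profiles lay close. Gulp1 was at 0.608 and 0.822 CPM in OPC anti-miR-ctl and at 0.472 and 0.522 CPM with the inhibitor, against 2.18 to 6.43 CPM in the OL libraries.

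The nearest to Mertk were Acsf2, an acyl-CoA synthetase (0.156), the progestin receptor gene Paqr7 (0.172), the homeobox gene Dbx2 (0.177), the GABA-B receptor gene Gabbr1 (0.196) and Iqck (0.204). Axl had more distant neighbours, Oplah, the 5-oxoprolinase (0.236), the adrenoceptor gene Adra1b (0.265), the ephrin gene Efna4 (0.272), the histamine receptor gene Hrh1 (0.274) and the oncostatin M receptor gene Osmr (0.281). Among the members, Pros1 was the nearest to Axl, in place 16, with Mertk in place 73. Mertk was in place 311 for Megf10. The libraries of a group share stage and treatment, so these distances are a description over 5 groups of 2.

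**Figure D5:**
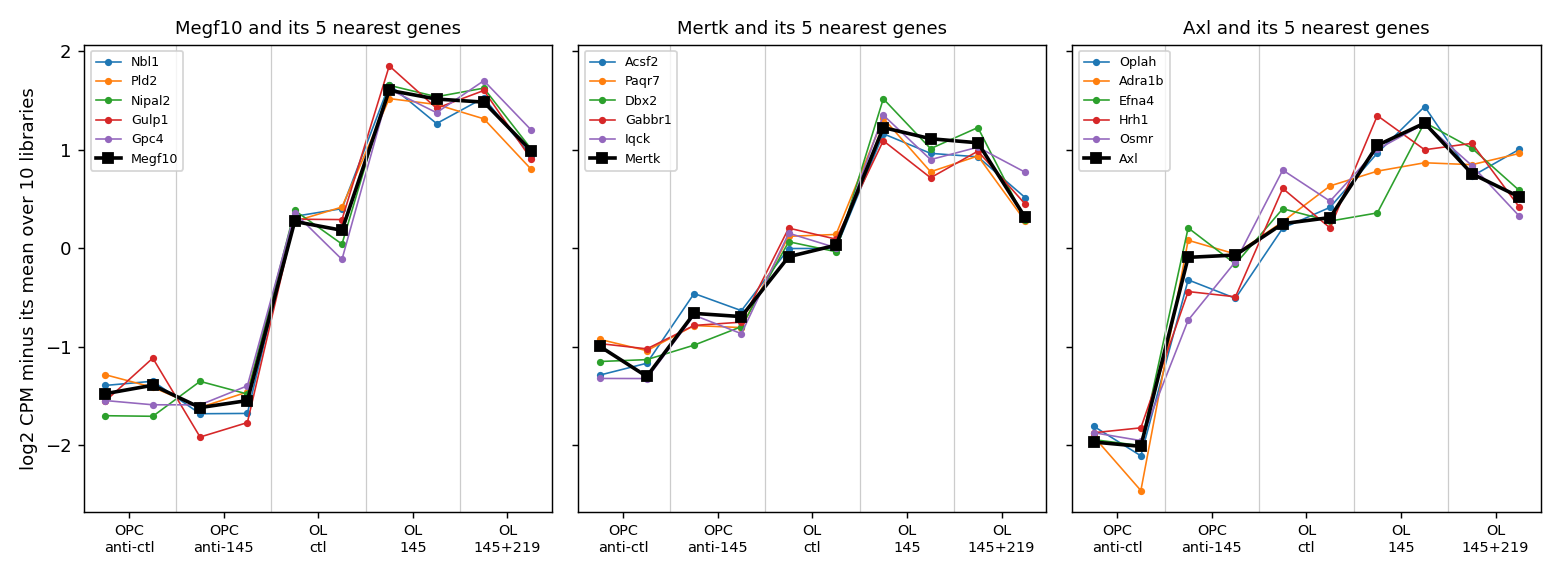
Log2 CPM minus its mean over the 10 libraries (y axis) for Megf10, Mertk and Axl (black squares) and the 5 genes nearest to each (coloured points), in the 2 libraries of each group (x axes); lines only join the points of a gene. Megf10 and its neighbours stay low in both OPC groups, while Axl and its neighbours are higher with the inhibitor than in control OPCs.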

How the data were processed

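RNA from primary rat OPCs and OLs was sequenced in 10 libraries (TruSeq Stranded mRNA, NextSeq). The authors assigned reads to GENCODE Rnor6.0 transcripts with Salmon 0.12.0 and tximport. What they deposited are estimated counts of each gene without normalisation. Between 16% and 17.5% of values were not whole and were rounded; libraries summed to 33505706 to 42684206 counts. Symbols came from the authors' deposited table of OL miR-145 against OL miR-ctl (14561 of 16129 genes). Its columns of mean signal, log2 fold change, SE, statistic and p-values were not used.

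For each comparison the 4 libraries concerned were fitted with edgeR 4.0.16 in R 4.3.3 (TMM, quasi-likelihood test), keeping genes that reached 5 counts in 2 or more of them. A gene was called when its p, adjusted by Benjamini and Hochberg over all genes tested, was under 0.05. The SE is the log2 fold change divided by the square root of F. All 8 members passed the filter in every comparison. Replicates differed by more than counting error (chi-square per degree of freedom 11.6 to 79.8). Figures were drawn with matplotlib 3.10.9.

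The members and lists were chosen with earlier results of these data known. Megf10 and Mertk were tested only in the inhibitor comparison, which shares no library with their choice, and no member was tested with miR-145 against miR-ctl, so counts of members called cover only those tested. From each list, up to 3 genes called higher and 3 called lower with the smallest p were named, or at most 2 where none was called. For Megf10, Mertk and Axl, the 5 nearest profiles (mean of at least 1 CPM) were named. Mbp, the marker genes named singly and the motifs were chosen after values were seen. Alternatives were DESeq2 1.42.0, its size factors within edgeR, other filters, a single fit of all libraries, a replicate term and leaving out each library. The functions were tested on simulated data. Sites of miR-145-5p in transcripts, gene positions in Rnor6.0 and mature miRNA levels were not analysed here, and some items that the naming rule reached are not reported here.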

Additional observations from a re-analysis of the deposited data

How the results depend on the processing

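The number of genes called depended on the test in the OL comparisons. With miR-145 against miR-ctl, edgeR called 0 of all genes, DESeq2 649, a single fit of all 10 libraries 32 and a replicate block 2272, and no count of members is given because the members were chosen with that comparison. With both mimics against miR-ctl, edgeR and DESeq2 called 0 of the 6 members tested and the replicate block 1 (Tyro3), and over all genes they called 0, 106 and 132, with 1 gene when the filter was dropped. With both mimics against miR-145 the block called 2 of 6 members (Axl and Gas6) and 184 genes, and DESeq2 called 9 genes. With the inhibitor 4 members were called, 3 in the single fit of all libraries (without Mertk; 2553 genes against 4348), 4 under the replicate block (3963 genes), and 5 (5536 genes) when replicate 1 of each OPC group was crossed with replicate 2 of the other, a pairing tried after the data were seen. The replicate numbers pair samples only by number: deviations of same-numbered libraries correlated at 0.303 to 0.509 between OL groups, -0.112 between the OPC groups and 0.0519 between the controls. For the controls of both stages 5 of 6 members tested were called in edgeR and under every setting that kept all libraries.

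Leaving out 1 library, the lone sample of a group is assumed to vary like the others. With miR-145 against miR-ctl, genes called then ran from 0 to 0. Tested members called ran from 0 to 0 in both comparisons of both mimics, from 3 to 5 with the inhibitor and from 4 to 6 between the controls, and genes called in the last 2 from 2348 to 7133 and from 4780 to 10306. Without a library, 9 log2 fold changes turned sign, none of them called in the full data: with both mimics against miR-ctl, Gas6 (range -0.08 to 0.65) and Mfge8 (-0.19 to 0.10, with 0.07 as the other positive value); with both mimics against miR-145, Tyro3 (-0.20 to 0.55, with -0.01 as the other negative value) and Lrp1 (-0.17 to 0.01); Lrp1 with the inhibitor (-0.15 to 0.36) and between the controls (-0.18 to 0.21, with -0.08 as the other negative value). Pros1 at 0.00 with both mimics was not read as a direction. Of the values of single tested members under an alternative, 248 kept their direction and their side of the threshold, 7 passed it and 4 lost it. Of those given without a test, 133 moved by less than the SD between replicates and 7 by more, with no change of sign. The causes were not tested.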
